A study of Mus musculus with 12 samples.

Results

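This comparison set CD4 T cells of Pkm2 knockout mice (KO) beside those of wild-type mice (WT) in the resting state, that is after culture with interleukin 7 alone. Its members were every gene with enough counts in the 6 resting libraries, 3 of each genotype: 16637 of the 55450 genes in the table passed edgeR's filter on low counts (a minimum count of 10 and a minimum total of 15). The series holds 12 libraries, and the other 6 come from the same genotypes after stimulation with plate-bound antibodies against CD3 and CD28. Interleukin 7 at 25 ng/mL is listed for these 6 stimulated libraries as well, so the antibodies were added to it and did not replace it. Both resting groups had human interleukin 7 at 25 ng/mL in medium with serum, glutamine and 2-mercaptoethanol, so the cytokine and the culture are shared by KO and WT. The labels name the starting material once as naive T cells of spleen and lymph nodes and once as splenocytes, name the selection of CD4 T cells as positive, and give the culture as 24 hours and as overnight. The strain, the age of the mice, the knockout allele and any Cre driver are not given in the sources used here. The labels do not tie replicates to separate animals or cultures. Tests therefore weigh differences only against the spread among these libraries, and that spread may be technical. Totals of the resting libraries ran from 63266477 to 72128433 counts.

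Pyruvate kinase makes pyruvate and ATP in the last step of glycolysis. The Pkm gene gives rise to the M1 and M2 forms by a choice between alternative exons, and the M2 form, PKM2, is the one whose activity is switched by metabolites and phosphorylation and which also acts as a cofactor in the nucleus. Naive CD4 T cells rest in a quiescent state that interleukin 7 signals, a low rate of protein synthesis and circulation through lymphoid organs maintain, and they burn pyruvate mainly in mitochondria. The study's title names CD4 T cell survival and pyruvate oxidation, and the gene groups below were ordered with that question in view.

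The libraries were first compared for transcripts of other cells, because they differed. Markers of CD4 T cells (18 genes) summed to 7377, 8094 and 9125 CPM (each gene's count as a rate over the library's TMM-scaled total) in WT resting 1, 2 and 3 and to 8321, 9044 and 9020.1 in KO resting 1, 2 and 3. Cd4 itself lay at 717, 815 and 933 CPM in WT and 941, 1006 and 1021 in KO, so the labelled cell type was present in every library. The 20 monocyte and macrophage markers summed to 5255, 2919 and 1947 CPM in WT and to 1682, 1768 and 1787 in KO. The 10 markers of red pulp macrophages, the iron-recycling phagocytes of the spleen, summed to 4156, 1955 and 907 CPM in WT and to 544, 601 and 699.6 in KO. All 3 WT libraries were above all 3 KO libraries in both lists, and WT resting 1 was far above the other two. Erythroid markers (20 genes) summed to 1946, 675 and 159.6 CPM in WT and to 2174, 315 and 233 in KO, so that replicate 1 of each genotype stood apart and the genotypes overlapped. B cell markers (18 genes) ran from 3750 to 6885 CPM in WT and from 4735 to 5348 in KO, and NK cell markers (12 genes) summed to 349.9, 286 and 297 CPM in WT and to 219, 269.95 and 238 in KO, every WT library being above every KO library. Plasma cell markers (8 genes) were, like the erythroid ones, highest in replicate 1 of each genotype, with 1482 CPM in WT and 975 in KO. No marker of these lists was at 0 in all 6 libraries. In bulk RNA, fewer cells of a type and less RNA per cell cannot be told apart.

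**Figure D1:**
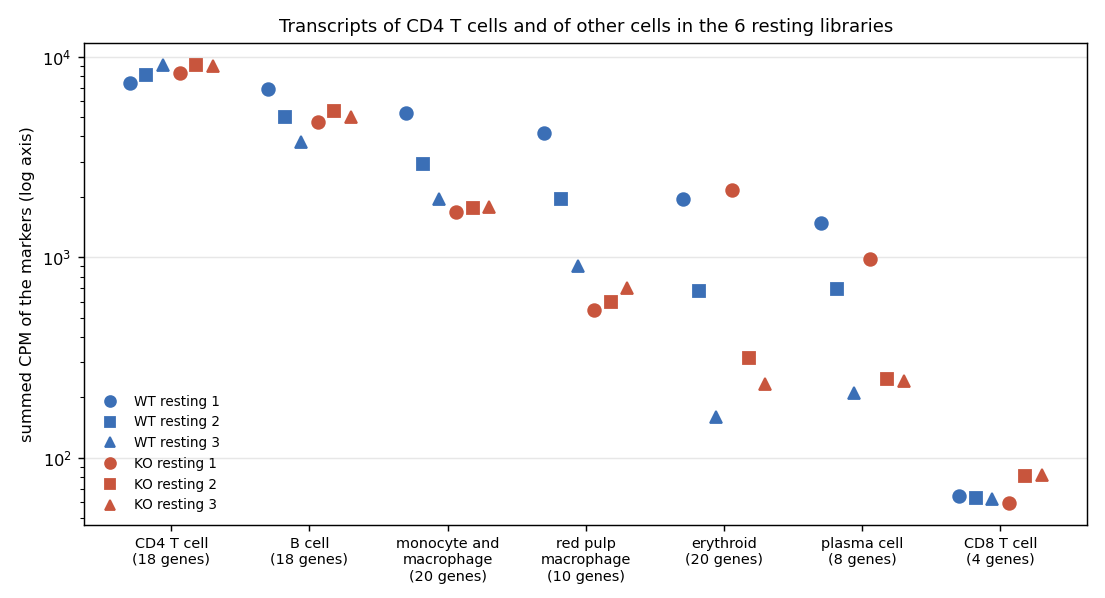
Summed CPM (log axis) of marker genes of 7 cell types in each resting library; blue is WT, red is KO, and the symbol gives the replicate number. Macrophage sums fall from WT resting 1 (5255 CPM) to the 3 KO libraries (1682 to 1787), and erythroid sums are highest in replicate 1 of both genotypes.

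In all, 6 of the 16637 genes (0.0361%) passed an adjusted p of 0.05 by edgeR's quasi-likelihood test, 3 in each direction (0.018% each). A further tally, at an unadjusted p under 0.05, held 2284 genes (13.7%). KO was above WT in 934 of them (5.61%) and below in 1350 (8.11%), and these 2 shares are the background for the list counts below that use all 6 libraries and no covariate. The DESeq2 Wald test called 518 genes (3.11%; 131 or 0.787% higher and 387 or 2.33% lower), and limma voom with library quality weights called 2438 (14.7%; 6.97% higher and 7.68% lower). The libraries of the 2 genotypes did not overlap for 3527 genes (21.2%), 10.4% of all genes being higher and 10.8% lower in KO. The genes that were lower in KO were mostly those for which WT resting 1 was the highest WT library: this held for 67.6% of the 1350 genes at an unadjusted p under 0.05 and 66.1% of the 387 that DESeq2 called, beside 39.3% of all genes tested. Among the 934 higher genes WT resting 1 was most often the lowest WT library (54.1%, beside 38.2% of all genes). The macrophage sums order the WT libraries in the same way, from WT resting 1 to WT resting 3, and their part in these differences was not tested. Leaving out 1 library moved the number at an unadjusted p under 0.05 to 3799 without WT resting 3 and to 1496, 1454 and 1192 without WT resting 2, KO resting 2 and KO resting 3. List counts from these fits have their own background. The share of all genes lower and higher was 6.91% and 4.74% without WT resting 1, 5.36% and 3.45% without WT resting 2, and 12.5% and 9.84% without WT resting 3. It was 5.62% and 4.54% without KO resting 1, 5.08% and 3.49% without KO resting 2, and 4.24% and 2.79% without KO resting 3. With the mean level of the macrophage markers as a covariate (the macrophage covariate) it was 5.54% and 5.75%. Summed macrophage markers were higher in every WT library than in any KO library. With 6 libraries this covariate therefore cannot be fully told apart from genotype, and every value under it has that limit.

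Pkm, the targeted gene (chromosome 9, 59656368 to 59679375, plus strand, mm10), was measured at 481, 490.4 and 563 CPM in WT and 194, 217 and 211 CPM in KO. Every KO library lay under every WT library, and the fall was 1.30 ± 0.08 on the log2 scale (SE, n = 3 per group, edgeR adjusted p = 0.0041). Counts per gene add up the M1 and M2 transcripts, so what remained in KO was not assigned to either form. The call was lost without KO resting 2 or KO resting 3, with an adjusted p of up to 0.097.

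Cxcr4 showed the largest fall of a named gene past the threshold. This receptor for Cxcl12 holds lymphocytes in bone marrow and in parts of lymphoid tissue, and it lies on chromosome 1 (128588199 to 128592293, minus strand, mm10). Its level was 127, 140.4 and 143 CPM in WT and 48.0, 45.0 and 45.0 CPM in KO. The KO libraries were close together and far below every WT library. The change of -1.57 ± 0.06 on the log2 scale (adjusted p = 0.00015) passed in all 6 fits that left out 1 library, and with the mean level of the macrophage markers as a covariate it was -1.70.

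Mbnl1 and Sox4 rose. Mbnl1, an RNA-binding protein that steers alternative splicing (chromosome 3, 60472830 to 60629750, plus strand, mm10), measured 989, 1025 and 1114 CPM in WT and 1830.2, 1841 and 1842 CPM in KO, a change of 0.82 ± 0.07 (adjusted p = 0.020). The KO libraries were nearly identical, and the highest WT library reached 1114 CPM. Sox4, a transcription factor of lymphocyte development (chromosome 13, 28948919 to 28953713, minus strand, mm10), measured 18.3, 18.5 and 18.1 CPM in WT and 26.9, 28.9 and 29.2 in KO, a change of 0.63 ± 0.05 (adjusted p = 0.020). The gap between its groups was wider than the spread within either. Mbnl1, Sox4 and the pseudogene Gm10275 were each lost without WT resting 2 and without each KO library in turn, with adjusted p values of up to 0.30, 0.30 and 0.38, while their log2 fold changes stayed between 0.78 and 0.87, 0.61 and 0.67, and -0.40 and -0.37.

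Both predicted genes past the threshold are processed pseudogenes, copies of spliced messenger RNA, so part of their counts may belong to related transcripts. Gm33707 (chromosome 3, 60769887 to 60770455, minus strand, mm10) was at 0 counts in WT resting 1, 2 and 3, against 1968, 1752 and 2093 counts in KO. Set against a floor of 3 counts per WT library, its mean of 27.0 CPM in KO was at least 603-fold higher (adjusted p = 0.00015). Its sequence resembles enolase 1, a glycolytic enzyme: over 576 aligned positions the GENCODE transcript was 89.2% identical to that of Eno1. Its first 100 bases are shown beside the matching stretch of Eno1, since so close a match bears on how reads are assigned. Capitals mark the 3 of 100 positions that differ. The Gm33707 line is chr3:60770356-60770455 (mm10, minus strand), and the Eno1 line is bases 730 to 829 of its coding sequence.
Gm33707: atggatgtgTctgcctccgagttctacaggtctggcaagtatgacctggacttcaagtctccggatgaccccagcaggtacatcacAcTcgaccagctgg
Eno1: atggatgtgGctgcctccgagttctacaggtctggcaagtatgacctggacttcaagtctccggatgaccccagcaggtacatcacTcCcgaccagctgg
Eno1 itself measured 471, 487 and 568 CPM in WT and 477, 536 and 508 CPM in KO, with overlapping groups and a log2 fold change of -0.01 ± 0.09. Gm10275 (chromosome 10, 29698746 to 29699380, minus strand, mm10) measured 116, 116 and 113 CPM in WT and 87.8, 89.2 and 87.8 in KO, a change of -0.38 ± 0.04 (adjusted p = 0.042). Its longest annotated transcript was 100.0% identical to Rpl12, a ribosomal protein gene, over 634 bases, so that its counts depend on how reads were shared with Rpl12, which measured -0.09 ± 0.13. Rpl12 was chosen after its values were seen.

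**Figure D2:**
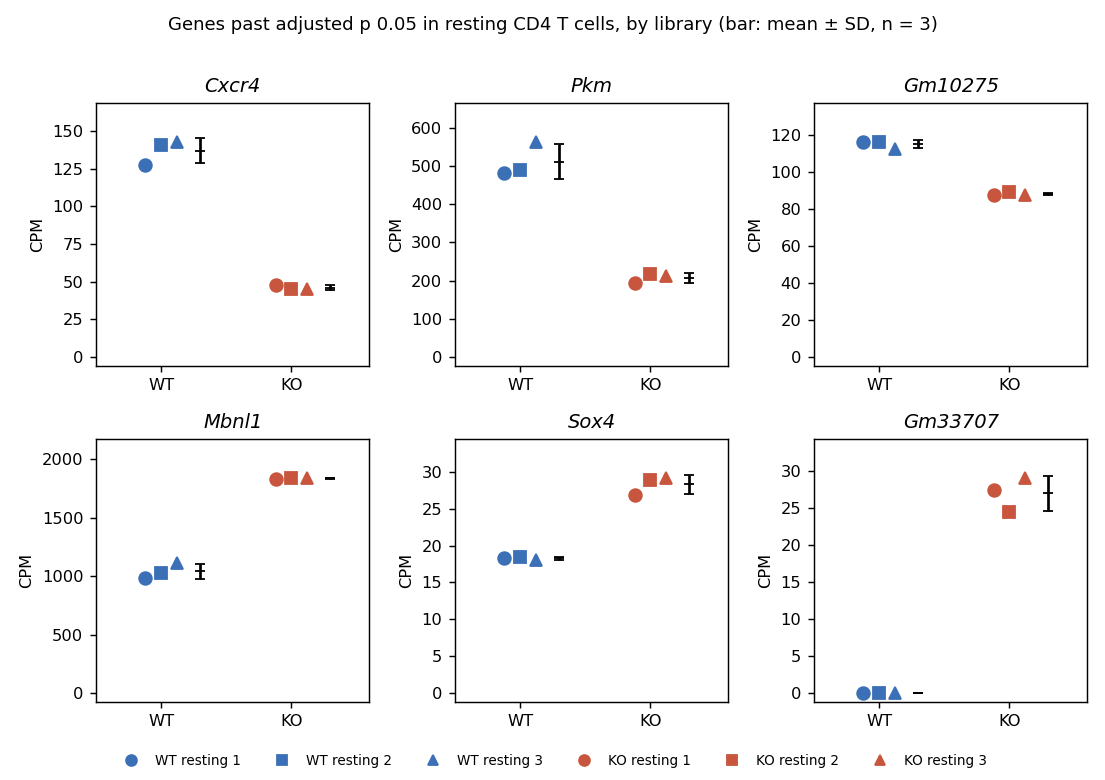
Level in CPM of the 6 genes past an adjusted p of 0.05 in each resting library; the bar beside each group is its mean ± SD (n = 3). Groups do not overlap in any panel, and Gm33707 is at 0 in all WT libraries.

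Just outside the threshold, Ddit4 had the smallest adjusted p. Ddit4 (REDD1), an inhibitor of mTORC1 that stress and glucocorticoids induce, measured 218, 182 and 179 CPM in WT and 109, 114 and 107 CPM in KO, a log2 fold change of -0.81 ± 0.08 (adjusted p = 0.052). Ddit4 passed without WT resting 3 and without WT resting 1, where it measured -0.71 (adjusted p = 0.0031). No overlap of the groups was a condition for naming Ddit4 and the other genes of this paragraph. Tsc22d3 (GILZ), a glucocorticoid-induced regulator that is also a FOXO target, measured 259.9, 259 and 249.8 CPM in WT and 182, 161 and 153 in KO, a value of -0.63 ± 0.07 (adjusted p = 0.073). Tsc22d3 differed little among the WT libraries, and its value with the macrophage markers as a covariate was -0.62. The part of macrophage transcripts in it was not tested. Nacc2, a transcriptional repressor, measured -0.61 ± 0.07 and Siah2, a ubiquitin ligase of hypoxia signalling, -0.72 ± 0.09 (adjusted p = 0.073 and 0.090). Fosl2, an AP-1 protein, measured -0.39 ± 0.05, Tent5a, a poly(A) polymerase, -0.36 ± 0.05, Agrn, the proteoglycan agrin, -0.40 ± 0.05, and Tgif1, a repressor of TGF-beta signalling, -0.40 ± 0.06, with adjusted p values of 0.090, 0.095, 0.12 and 0.15. Tmem254b, of unknown role, measured -0.34 ± 0.05. Complement C4b and the lectin receptor Cd209b, both products of macrophages and other non-T cells, measured -1.08 ± 0.13 and -0.80 ± 0.12 (adjusted p = 0.090 and 0.14). C4b was at 17.2, 12.4 and 15.9 CPM in WT and 6.92, 6.91 and 7.75 in KO, and Cd209b at 20.005, 23.4 and 21.2 and 12.5, 14.1 and 10.5. In neither did WT resting 1 stand as far above the other WT libraries as it did in the macrophage sums, and the part of macrophage transcripts in both was not tested.

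Of the genes with higher values in KO that did not pass and had a mean of at least 3 CPM, Cd55 and Rb1 had the smallest p. Cd55, the complement decay-accelerating factor of the cell surface, measured 84.6, 84.7 and 82.2 CPM in WT and 103, 112 and 114 in KO, and Rb1, the retinoblastoma repressor of cell cycle entry, 65.3, 66.0 and 64.4 and 81.4, 78.0 and 81.9. Their log2 fold changes were 0.39 ± 0.05 and 0.30 ± 0.04, both at an adjusted p of 0.090. Phlda3, a p53 target that holds back AKT, was at a low level in both groups, 1.46, 1.62 and 1.46 CPM in WT and 3.70, 3.60 and 3.71 in KO, with a log2 fold change of 1.28 ± 0.14 (adjusted p = 0.073). Kit, the stem cell factor receptor, measured 0.59 ± 0.10 and Sorcs2, a sorting receptor of the sortilin family, 0.52 ± 0.09. Kit was at 15.2, 12.3 and 13.1 CPM in WT and 21.3, 21.4 and 18.5 in KO; of the 4 other mast cell and basophil markers tested, none had an unadjusted p under 0.05. Fgfbp3, a carrier of fibroblast growth factors, measured 0.78 ± 0.11, from 3.62, 3.77 and 4.04 CPM in WT and 6.42, 6.47 and 6.73 in KO. The ubiquitin ligase March7, the zinc finger protein Zfp507, the RNA-binding proteins Tia1 and Pspc1, the helicase Dhx40 and the membrane protein Tmem80 measured between 0.22 and 0.31. No overlap of the groups was a condition for naming these 6 and also Cd55, Rb1, Kit, Sorcs2 and Fgfbp3. None of the 6 passed (adjusted p from 0.14 to 0.17). DESeq2 called each of the 24 uncalled genes named by this rule (12 per direction), beside 3.11% of all genes. These 24 were picked from the same counts for small p and no overlap, so the DESeq2 calls add no separate support. Of the 518 genes that DESeq2 called, 510 had no overlap.

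Receptors that direct lymphocyte traffic had values in both directions. Here and in the lists that follow, members counted as higher or lower are those at an unadjusted p under 0.05, of which none passed after adjustment unless said. Of 24 tested, 4 were higher and 4 lower at an unadjusted p under 0.05 (16.7% each, beside 5.61% and 8.11% of all genes), with a median log2 fold change of 0.00; Cxcr4 was the one that passed. S1pr1, the sphingosine 1-phosphate receptor that lets T cells leave lymphoid organs, measured 362, 355 and 408 CPM in WT and 478, 542 and 539 CPM in KO, a value of 0.47 ± 0.08 (adjusted p = 0.17). Gpr183, an oxysterol receptor that positions cells in follicles and at the T zone border, measured 72.3, 68.0 and 74.1 and 82.2, 89.4 and 89.5 CPM. Ccr7, which guides naive T cells into the T zone, measured 285, 299.9 and 306 and 347, 362 and 365 CPM and was chosen after its values were seen. All KO libraries were above all WT libraries in these 3 genes, with log2 fold changes of 0.27 to 0.47. For S1pr1 this was a condition for naming it. The lower members beside Cxcr4 included Itgb1 and Cd44, of which Cd44 followed the macrophage order with 255, 183 and 141 CPM in WT and 135, 127 and 131 in KO. The lower members numbered 2 without KO resting 1 or KO resting 2 and 1 without KO resting 3 or with the macrophage markers as a covariate.

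Genes of T cell quiescence gave a like mixture: of 27, 3 were higher and 4 lower at an unadjusted p under 0.05 (11.1% and 14.8%), with a median of 0.04. Beside Sox4 the higher ones were Id3, an inhibitor of E proteins (29.2, 30.0 and 27.3 CPM in WT and 31.8, 41.7 and 44.3 in KO), and Foxp1. Beside Tsc22d3 the lower ones were Tob1, Cdkn1b, the cyclin-dependent kinase inhibitor p27 (-0.22 ± 0.06), and Txnip. Txnip, which restrains glucose uptake and rises with glucose, measured 773, 735 and 826 CPM in WT and 679, 648 and 608 CPM in KO, a value of -0.27 ± 0.07 (adjusted p = 0.28) with no overlap. Id3 and Cdkn1b are named here with their values already seen. The highest members by count, Tcf7 and Ets1, which hold the naive state, measured 0.17 ± 0.08 and 0.04 ± 0.09. Without WT resting 3, 9 members were higher at that threshold instead of 3, and with the macrophage markers as a covariate 7 were lower instead of 4, with a median of -0.04.

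Most heat shock genes had lower values in KO. They encode the chaperones that fold and refold cytosolic proteins and are switched on by the factor HSF1, which binds repeated GAA units in their promoters. Of 22 tested, 16 (72.7%, beside 8.11% of all genes) had an unadjusted p under 0.05 with lower values in KO, and 0 with higher; the median log2 fold change was -0.39, beside 0.01 over all genes. None passed the adjusted threshold, and DESeq2 called 13. To show what these promoters hold, windows from 250 bases before to 50 after the annotated start were read from RefSeq (GRCm38.p6) for the 17 members that matched. A run of 3 inverted units (GAA, any 2 bases, TTC, any 2 bases, GAA; both strands; 13 letters in all) was found for 4 of the 17 genes (23.5%), Hsph1, Hspe1, Hspd1 and Chordc1, and for 0.662% of the 27025 genes with a window. Hspe1 and Hspd1 are divergent neighbours whose windows overlap and share the match. The windows of Hsph1 (chr5:149636266-149636565, minus strand), Hspe1 (chr1:55087898-55088197, plus strand) and Chordc1 (chr9:18292017-18292316, plus strand) follow, with the matches, overlapping ones joined, in capitals.
Hsph1: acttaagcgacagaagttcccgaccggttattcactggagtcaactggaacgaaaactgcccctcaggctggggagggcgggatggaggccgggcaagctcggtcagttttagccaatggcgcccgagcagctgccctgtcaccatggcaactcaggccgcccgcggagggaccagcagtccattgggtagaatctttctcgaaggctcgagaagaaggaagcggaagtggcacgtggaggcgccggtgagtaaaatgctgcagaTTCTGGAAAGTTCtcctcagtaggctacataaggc
Hspe1: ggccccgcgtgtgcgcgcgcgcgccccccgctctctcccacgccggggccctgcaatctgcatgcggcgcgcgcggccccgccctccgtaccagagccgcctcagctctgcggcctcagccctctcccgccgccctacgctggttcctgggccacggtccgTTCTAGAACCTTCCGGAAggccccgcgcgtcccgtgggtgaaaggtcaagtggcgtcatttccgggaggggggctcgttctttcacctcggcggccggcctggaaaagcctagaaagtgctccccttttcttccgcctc
Chordc1: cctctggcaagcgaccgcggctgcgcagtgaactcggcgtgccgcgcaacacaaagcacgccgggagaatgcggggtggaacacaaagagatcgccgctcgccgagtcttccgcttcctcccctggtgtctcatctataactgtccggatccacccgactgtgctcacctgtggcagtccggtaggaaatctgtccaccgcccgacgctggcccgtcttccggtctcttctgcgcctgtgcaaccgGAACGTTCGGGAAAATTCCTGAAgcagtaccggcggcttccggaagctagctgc
The same motif was not in the windows of Hspa1a, Hspa1b, Dnajb1 or Bag3, which says only that these letters are not there.

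Among the chaperones themselves, Hspa1a had the lowest log2 fold change (-1.22). Dnajb1, an HSP40 that hands substrates to HSP70, measured 153, 221 and 267 CPM in WT and 95.4, 106 and 91.8 CPM in KO, a log2 fold change of -1.13 ± 0.21 (adjusted p = 0.22). Hspa1a and Hspa1b, the inducible HSP70 pair, measured 47.2, 70.0 and 36.9 and 137, 238 and 144 CPM in WT and 23.0, 22.7 and 20.6 and 81.8, 83.3 and 79.1 in KO. The KO libraries were close together and all below WT, and WT resting 2 was the highest library for both. The 2 genes are near-identical copies, so how reads were split between them is uncertain. Bag3, their co-chaperone in aggregate clearance, measured 14.8, 16.6 and 16.2 CPM in WT and 11.3, 9.91 and 8.99 in KO (-0.66 ± 0.10, adjusted p = 0.15). Hsph1, an HSP110 exchange factor, measured 154, 182 and 226 CPM in WT and 105, 109.6 and 128 in KO, a value of -0.71 ± 0.15. The constitutive Hspa8 measured 2370.4, 2415 and 2917 CPM in WT and 1685, 1977 and 1913 CPM in KO, and Hsp90ab1 1653, 1824 and 2123 and 1273, 1409 and 1358 CPM. Both were higher in every WT library than in any KO library, and their log2 fold changes were -0.47 ± 0.11 and -0.47 ± 0.10. The HSP90 partners Ahsa1 and Cacybp measured -0.34 ± 0.06 and -0.51 ± 0.10, and the mitochondrial chaperonins Hspe1 and Hspd1 -0.32 ± 0.08 and -0.19 ± 0.08. The small chaperone Hspb1 measured -0.31 without reaching that threshold, and Chordc1, Hspa4, Hspa4l, Ppid and Hsf1 lay between -0.04 and 0.11. In 12 of the 16 genes WT resting 1 was the lowest WT library and in 0 the highest, while it was the highest in the macrophage sums. The part of macrophage transcripts in the heat shock values was not tested. With the macrophage markers as a covariate the median was -0.57 with 14 members lower, and Dnajb1 and Cacybp passed (adjusted p = 0.00072 and 0.013). Leaving out 1 library at a time kept the median between -0.44 and -0.33 and 13 to 16 members lower. Dnajb1 and Cacybp passed without WT resting 1 (adjusted p = 0.018 and 0.039), and Hspa1b passed without WT resting 2 (adjusted p = 0.031). Dnajb1, Hspa1a, Hspa1b, Hsph1, Hspe1, Hspd1 and Chordc1 were chosen after their values were seen.

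**Figure D3:**
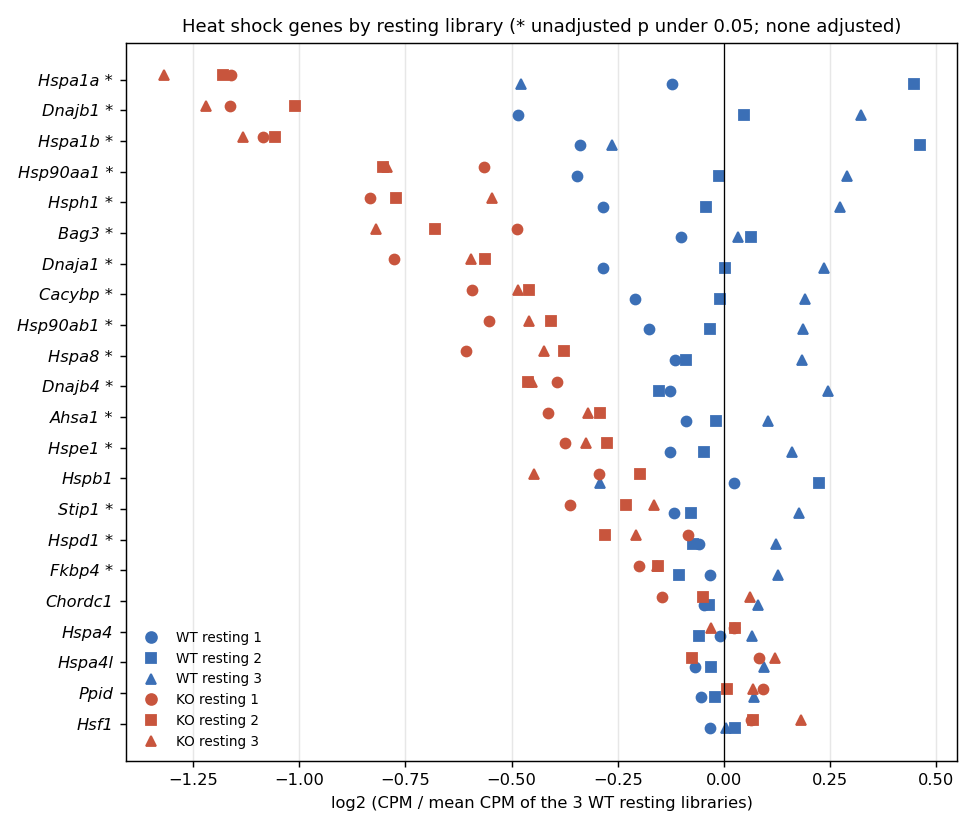
Level of 22 heat shock genes in each resting library as log2 of CPM over the WT mean; blue is WT, red is KO, and the symbol gives the replicate number. In the genes with the largest differences all KO points lie left of all WT points, and the WT points spread with replicate 1 mostly lowest; 16 genes have an unadjusted p under 0.05 and none passes after adjustment.

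Immediate early genes, which respond within minutes to receptor signals and to handling, were lower in 9 and higher in 2 of 23 (39.1% and 8.70%), with a median of -0.10. Fosl2 is described above. Ier2, another early transcription factor, measured 85.2, 85.6 and 84.1 CPM in WT and 71.4, 75.1 and 70.5 in KO, and Dusp5, a nuclear ERK phosphatase, 42.3, 43.9 and 44.4 and 37.2, 35.2 and 33.4. Their groups did not overlap, at -0.23 ± 0.04 and -0.30 ± 0.05 (adjusted p = 0.17 and 0.17). Fos, whose groups did not overlap either, followed the macrophage order within WT, with 18.3, 13.1 and 10.5 CPM in WT and 6.79, 7.40 and 7.55 in KO, and its value of -0.95 ± 0.20 was -0.34 with the macrophage markers as a covariate. The 2 higher members were Jund and Myc. With that covariate 6 members were lower, and the higher ones numbered 0 without WT resting 2, KO resting 2 or KO resting 3.

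Activation genes of CD4 T cells were lower in 8 and higher in 2 of 22 (36.4% and 9.09%), with a median of -0.16. Icos, the costimulatory receptor of helper T cells, measured 91.7, 94.0 and 97.4 CPM in WT and 62.4, 67.2 and 74.0 CPM in KO, a value of -0.48 ± 0.07 (adjusted p = 0.12). Tigit, an inhibitory receptor, measured 11.4, 11.9 and 11.7 CPM in WT and 8.28, 8.87 and 9.62 in KO, and Ifng, the T helper 1 cytokine, 4.93, 4.18 and 4.07 and 2.64, 2.97 and 1.69. All WT libraries were above all KO libraries in these 3 genes, which for Icos was a condition for naming it. The other lower members were Pdcd1, Batf, Ctla4, Gzmb and Lag3, and the higher ones Irf4 and Myc. Ifng and Gzmb are also products of NK cells, whose markers had lower values in KO: 10 of 12 lay below 0, 3 (25%) were lower and the median was -0.23. These 3 were Klrk1, Klra4 and Fcer1g, the last of which macrophages also express, and the part of NK cell transcripts in these values was not tested. Among genes under a mean of 3 CPM, the ligand of OX40, Tnfsf4, was higher in KO (0.300, 0.331 and 0.454 CPM in WT, 1.34, 1.75 and 2.05 in KO), while the 4-1BB ligand Tnfsf9 (3.57, 3.66 and 4.44 and 1.43, 1.69 and 1.596) and the helper cytokine Il21 (2.84, 3.61 and 2.197 and 0.752, 0.838 and 1.05) were lower. Their log2 fold changes were 2.24 ± 0.27, -1.30 ± 0.17 and -1.71 ± 0.25, with adjusted p values of 0.090, 0.090 and 0.14; these 3 were chosen after their values were seen. Without KO resting 2 the lower activation genes numbered 4 and without WT resting 2 they numbered 5, instead of 8. Under the macrophage covariate they numbered 3, with a median of -0.16. The higher ones numbered 0 without WT resting 2, KO resting 2 or KO resting 3.

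No survival gene passed the adjusted threshold. Mcl1, an interleukin 7 dependent protein that opposes apoptosis, measured 785, 780.5 and 789 CPM in WT and 639, 664 and 629 CPM in KO. Its log2 fold change was -0.29 ± 0.05, which did not pass (edgeR adjusted p = 0.20). The WT libraries were nearly equal, and no KO library reached them. Of 14 genes that oppose apoptosis, 2 were lower (14.3%) and 0 higher at an unadjusted p under 0.05, the other being Bcl2a1d (-0.30 ± 0.11). Of 10 that promote it, 2 were higher (20%) and 0 lower: Bcl2l11 (BIM) at 66.0, 68.2 and 67.1 CPM in WT and 77.4, 71.4 and 73.3 in KO, and Bbc3 (PUMA) at 11.8, 11.5 and 12.5 and 13.03, 13.8 and 14.8. These differences were 0.14 ± 0.04 and 0.22 ± 0.08 on the log2 scale (adjusted p = 0.31 and 0.33). Among 21 death receptor and caspase genes 4 were lower and 2 higher (19% and 9.52%, beside 8.11% and 5.61% of all genes). The TNF receptor Tnfrsf1b measured -0.28 ± 0.07 and the ligand Fasl -0.46 ± 0.14. Of 22 p53 targets 2 were higher (9.09%), Phlda3 and Bbc3, and 1 lower (4.55%), Ddit4. In the interleukin 7 and STAT5 group of 21, 3 were lower (14.3%) and 2 higher (9.52%). The lower ones were Mcl1, the shared receptor chain Il2rb at -0.28 ± 0.06 and the feedback gene Socs2 at -0.28 ± 0.09. The higher ones were Pim1 and Stat5a, and Il7r overlapped between the groups (0.09 ± 0.09). These counts moved with single libraries. The lower death receptor and caspase genes numbered 2 without WT resting 1 or any 1 KO library and 6 without WT resting 3, and the higher ones 0 without KO resting 2 or KO resting 3 and 1 without any 1 WT library. The lower genes that oppose apoptosis numbered 1 without WT resting 1, KO resting 2 or KO resting 3 and 4 without WT resting 3. The higher genes that promote it numbered 1 without WT resting 2, KO resting 2 or KO resting 3, as did the higher p53 targets, which numbered 4 without WT resting 3. In the interleukin 7 group the lower genes numbered 5 without WT resting 1 and the higher ones 5 without WT resting 3, 0 without WT resting 2 and 1 in the other 4 fits. With the macrophage markers as a covariate 1 death receptor or caspase gene, 2 p53 targets and 5 genes of the interleukin 7 group were lower. Under it Bcl2a1d, Tnfrsf1b and Fasl measured -0.03, -0.11 and -0.24, and Bcl2l11 and Bbc3 0.12 and 0.18. Mcl1, Il2rb and Socs2 measured -0.29, -0.31 and -0.42. The part of macrophage transcripts in these values was not tested.

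Most enzymes around pyruvate showed small values, Hk3 and Idh1 being among the exceptions. Of 24 glycolysis genes 2 were lower and 0 higher at an unadjusted p under 0.05 (8.33%, beside 8.11% of all genes), with a median of -0.08. Pgam1, phosphoglycerate mutase, measured 82.3, 79.8 and 80.4 CPM in WT and 70.6, 73.7 and 75.6 in KO (-0.14 ± 0.04, adjusted p = 0.30), and Hk3, the hexokinase of phagocytes, followed the macrophage order (33.4, 19.8 and 11.1 and 10.2, 10.3 and 9.24 CPM). Gapdh, the member with the highest count, measured -0.11 ± 0.05. The lower members numbered 1 without WT resting 2 or KO resting 3, 4 without WT resting 3 and 5 with the macrophage markers as a covariate. Of 14 genes of pyruvate import and the pyruvate dehydrogenase complex, 2 were higher (14.3%, beside 5.61% of all genes) and 0 lower. Pdk1, a kinase that switches the complex off, was at 308, 326 and 364 CPM in WT and 369.8, 392 and 376 in KO. Pdpr, a regulatory subunit of the complex's phosphatase, was at 34.7, 41.2 and 44.1 and 46.1, 46.1 and 46.2. Pdk1 measured 0.19 ± 0.07 and Pdpr 0.21 ± 0.09 (adjusted p = 0.33 and 0.36), and with the macrophage markers as a covariate they measured 0.04 and -0.03. Pdha1, the catalytic subunit, measured 0.07 ± 0.07. The higher members numbered 0 without WT resting 2, KO resting 2 or KO resting 3, 1 without WT resting 1 or KO resting 1 and 4 without WT resting 3. Of 20 tricarboxylic acid cycle genes 5 were lower (25%). Sdhc, Mdh1 and Idh2, the 3 with the smallest p, measured -0.15, -0.15 and -0.11. The other lower members, Aco1 and Idh1, measured -0.19 and -0.75. The number lower was 0 without KO resting 1 or KO resting 3, 1 without WT resting 1 and 2 without WT resting 2. It was 3 without KO resting 2, 4 without WT resting 3 and 0 with the macrophage markers as a covariate. None of these metabolic genes passed the adjusted threshold.

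Respiratory chain transcripts encoded in the nucleus had small values, mostly below 0. Of 51 nuclear-encoded subunits 43 lay below 0 and 13 (25.5%) were lower at an unadjusted p under 0.05, with a median of -0.07; 0 were higher. Atp5l, a subunit of ATP synthase, measured 97.4, 97.8 and 96.3 CPM in WT and 84.8, 86.9 and 86.8 CPM in KO, Cox8a, of cytochrome oxidase, 78.8, 76.8 and 76.1 and 69.0, 70.4 and 65.5, and Uqcrh, of complex III, 135, 144 and 139 and 112, 124 and 124. No KO library reached a WT library in these 3 genes, and the differences were -0.17 ± 0.04, -0.18 ± 0.04 and -0.22 ± 0.05 (adjusted p from 0.21 to 0.26). Of the 13 protein genes of mitochondrial DNA 4 were lower (30.8%). These were mt-Nd3 at 103, 100 and 93.6 CPM in WT and 68.9, 79.1 and 76.3 CPM in KO, mt-Co3, mt-Atp6 and mt-Nd6. Their log2 fold changes were -0.40, -0.54, -0.49 and -0.63. Of the 13, 4 lay above 0, and the median was -0.10. The members with the highest counts, mt-Co1 and mt-Cytb, measured -0.10 ± 0.12 and -0.04 ± 0.11, and none of the 13 passed. Without KO resting 3 the lower nuclear subunits numbered 6, without KO resting 1 they numbered 7 and without WT resting 2 they numbered 8. Under the macrophage covariate they numbered 7, with a median of -0.07.

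Redox and amino acid stress genes had values below 0 in most members. Of 18 NRF2 and thiol genes 7 were lower (38.9%) and of 18 Atf4 targets 6 (33.3%), with 0 higher in both and medians of -0.15 and -0.10. Slc7a11, the cystine importer that both lists hold, was at a low level, with 1.14, 0.899 and 1.86 CPM in WT and 0.209, 0.195 and 0.347 in KO (-2.37 ± 0.38, adjusted p = 0.15). Prdx1, a peroxiredoxin, measured 217, 185 and 184 CPM in WT and 136, 155 and 148 CPM in KO (-0.42 ± 0.08), and Srxn1, which restores it, 5.09, 3.72 and 2.80 and 2.24, 1.83 and 2.17. Hmox1, heme oxygenase, which red pulp macrophages hold in abundance, measured 811, 399 and 181 CPM in WT and 80.5, 114 and 126 CPM in KO. Within WT, Prdx1, Srxn1 and Hmox1 were highest in WT resting 1, the library highest in macrophage transcripts, and Slc7a11 was highest in WT resting 3. With the macrophage markers as a covariate, 2 NRF2 and 2 Atf4 genes were lower in place of 7 and 6. Atf3, a stress-induced factor, measured -0.73 ± 0.20 and -0.35 with that covariate.

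Interferon response genes and genes of memory and effector T cells also had medians below 0. Of 44 interferon genes 42 had values below 0 and 11 (25%) were lower at an unadjusted p under 0.05, with a median of -0.14. Isg15, a ubiquitin-like modifier, measured 23.8, 22.5 and 21.7 CPM in WT and 14.1, 18.0 and 17.4 in KO, Gbp3, a guanylate-binding protein, 45.9, 40.9 and 39.1 and 29.2, 33.5 and 32.4, and Ifi27l2a 113, 96.9 and 103 and 69.0, 82.3 and 83.7. KO resting 1 was the lowest library in all 3, and without KO resting 1 the lower members numbered 6 instead of 11. Under the macrophage covariate the median was -0.11 and 6 were lower. Of 25 memory and effector genes 7 were lower (28%) and 1, Gata3, higher (4%), with a median of -0.18. Maf, a transcription factor of follicular helper cells and of macrophages, measured 181, 137 and 112 CPM in WT and 73.7, 78.0 and 80.2 CPM in KO (-0.89 ± 0.17), and Anxa2 and Lgals3 measured -0.33 ± 0.09 and -0.97 ± 0.28. Maf and Lgals3 followed the macrophage order within WT; with the macrophage markers as a covariate Maf measured -0.38 (adjusted p = 0.036) and Lgals3 -0.17, and 3 members of the list were lower. Without KO resting 1 or KO resting 3 the lower members also numbered 3. The NK cell marker sums given above were lower in KO as well, and their part in this list was not tested.

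The macrophage genes themselves were lower in KO without passing the adjusted threshold. Of the 20 monocyte and macrophage markers 13 (65%) were lower at an unadjusted p under 0.05, with a median of -1.13, and of the 10 red pulp macrophage markers all 10, with a median of -1.97. Cd5l, a protein macrophages secrete, measured 248, 116 and 48.2 CPM in WT and 31.1, 24.8 and 26.3 CPM in KO, Slc40a1, the iron exporter ferroportin, 784, 398 and 184 and 86.1, 115 and 134, and Vcam1, the adhesion molecule, 1055, 439 and 199.9 and 139, 127 and 161. WT resting 1 was the highest library and WT resting 3 the nearest to KO in all 3 genes, and the adjusted p values were 0.31, 0.31 and 0.33. The scavenger receptor Msr1 measured -0.84 ± 0.22, Cd14 -1.79 ± 0.45 and the growth factor receptor Csf1r -1.46 ± 0.54, while Lyz2, shared with neutrophils, measured -0.23 ± 0.17. Without WT resting 1 the medians were -0.63 and -1.19 and the lower members numbered 8 and 5; without WT resting 2 they numbered 8 and 9, without KO resting 1, 2 and 1, without KO resting 2, 6 and 3, and without KO resting 3, 5 and 4. Erythroid markers, with 0 of 20 at an unadjusted p under 0.05 and a median of 0.54, turned with 1 library: the median was 1.44 without WT resting 1 and -2.25 without KO resting 1. Of 11 platelet markers, the integrin Itgb3 (158, 176 and 183 CPM in WT, 218, 235 and 217 in KO) was higher and the chemokine Pf4 (2.19, 2.57 and 3.53 and 0.946, 1.47 and 1.94) lower at an unadjusted p under 0.05. Of 4 CD8 T cell markers, Cd8b1 alone had an unadjusted p under 0.05, at 24.8, 26.9 and 27.0 CPM in WT and 29.3, 39.2 and 38.5 in KO.

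Genes of growth had small values. Of 24 sterol synthesis genes 5 were higher (20.8%, beside 5.61% of all genes) and 0 lower, with a median of 0.03. The cyclase Lss measured 22.9, 23.2 and 25.3 CPM in WT and 27.2, 28.3 and 26.8 CPM in KO (0.21 ± 0.06, adjusted p = 0.29), and the epoxidase Sqle 18.1, 18.6 and 21.8 and 22.7, 24.5 and 23.7 (0.28 ± 0.08, adjusted p = 0.30). WT resting 1 was the lowest library for both, and with the macrophage markers as a covariate they measured 0.12 and 0.12. The higher members numbered 3 without KO resting 2 or KO resting 3. Of 26 ribosome biogenesis genes 6 were higher (23.1%), among them the acetyltransferase Nat10 (0.16 ± 0.06) and the nucleolar proteins Nop58 (0.16 ± 0.06) and Rrs1 (0.12 ± 0.05); there were 0 without WT resting 1, WT resting 2 or KO resting 3 and 13 without WT resting 3. With the macrophage markers as a covariate their median turned from 0.09 to -0.05 with 2 members lower, and Nat10, Nop58 and Rrs1 measured 0.03, 0.06 and 0.09. All 75 ribosomal protein genes lay below 0, with a median of -0.12, and none had an unadjusted p under 0.05; without WT resting 1 there were 40 (beside 6.91% of all genes), with a median of -0.20. Under the macrophage covariate all 75 were lower at that threshold, beside 5.54% of all genes, with a median of -0.33. Replication and mitosis genes had 0 of 25 and 0 of 23 at that threshold, with medians of 0.11 and 0.19 that turned to -0.11 and -0.50 without KO resting 1, the library that also stood apart in erythroid transcripts.

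**Figure D4:**
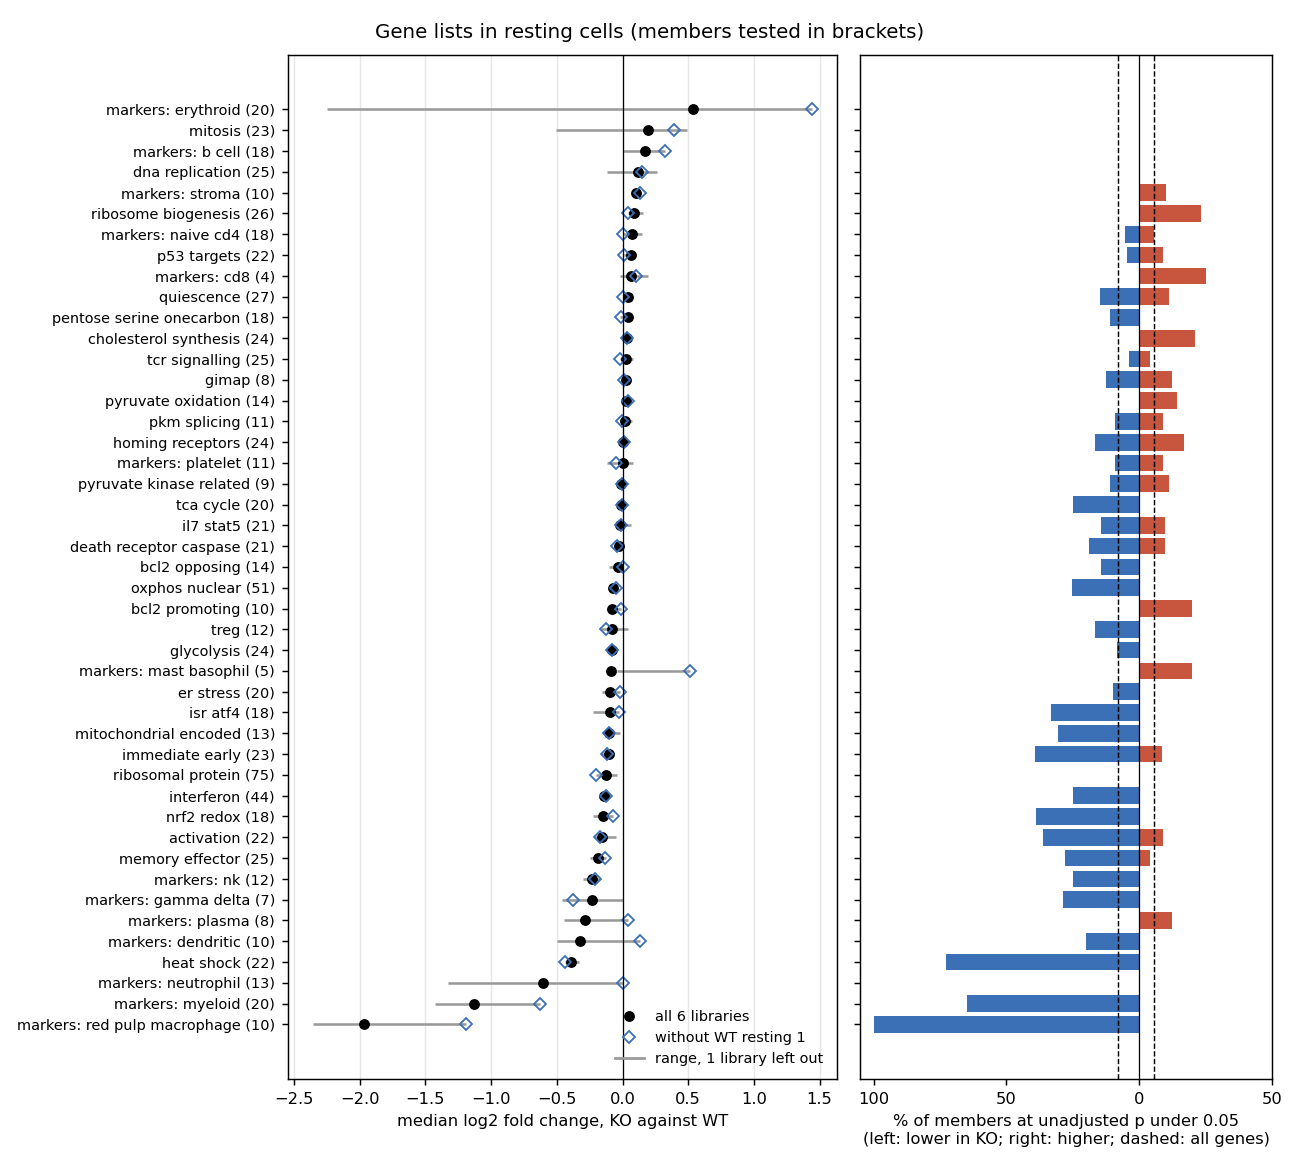
Left, median log2 fold change of KO against WT for each gene list (filled point, 6 libraries), the same without WT resting 1 (open diamond) and the range when 1 library is left out (grey line); right, percent of members at an unadjusted p under 0.05, with dashed lines at the 8.11% lower and 5.61% higher of all genes. The heat shock median stays between -0.44 and -0.33 when 1 library is left out, whereas macrophage and erythroid medians shift with single libraries.

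The surroundings of Mbnl1 and Gm33707, which both lie on chromosome 3, were described gene by gene. Of the 40 genes tested within 5 Mb on either side of Mbnl1, 15 (37.5%, beside 13.7% of all genes) had an unadjusted p under 0.05, 3 higher and 12 lower in KO, and Gm33707 was the 1 that passed. Within 5 Mb of Pkm on chromosome 9 the number was 14 of 93 (15.1%). Around Mbnl1 the lower genes held Siah2, at 15.9, 18.7 and 19.5 CPM in WT and 10.5, 11.2 and 11.2 in KO, and Gpr171, a receptor of T cells, at -0.18 ± 0.06, as well as the purine receptors P2ry12, P2ry13 and P2ry14 of phagocytes. Those 3 followed the macrophage order within WT: P2ry12 measured 15.0, 7.65 and 5.52 CPM in WT and 2.77, 3.87 and 4.43 in KO. With the macrophage markers as a covariate P2ry12, P2ry13 and P2ry14 measured -0.17, 0.15 and 0.15, and Siah2 -0.91 (adjusted p = 0.015). These neighbours, Siah2 apart, were picked with their values known.

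The stimulated libraries, which share no sample with the resting ones, served to ask which of these resting differences held after stimulation. Genes were picked by their resting values, which by itself favours a difference between the conditions. In the stimulated libraries 719 of 15090 genes (4.76%, with 3.37% higher and 1.4% lower) passed. The difference between the KO effects of the 2 conditions passed for 121 of 17460 genes (0.693%, with 0.556% higher and 0.137% lower). Pkm measured -1.30 ± 0.08 at rest and -1.23 ± 0.03 after stimulation, and Mbnl1 0.82 ± 0.07 and 0.78 ± 0.03; for these 2 the differences of 0.05 ± 0.10 and -0.06 ± 0.08 did not pass (adjusted p = 0.83 and 0.77). Sox4 measured 0.63 ± 0.05 and 0.26 ± 0.08, with a difference of -0.39 ± 0.09 that did not pass (adjusted p = 0.071). S1pr1, at 0.47 ± 0.08 and 0.43 ± 0.09, and Ccr7, at 0.27 ± 0.05 and 0.37 ± 0.04, had differences of -0.06 ± 0.11 and 0.09 ± 0.07 (adjusted p = 0.83 and 0.60). Cxcr4 was lower in KO at rest and higher in KO after stimulation (-1.57 ± 0.06 and 0.75 ± 0.11), a difference of 2.30 ± 0.12 (adjusted p = 4.6e-06). Tsc22d3 (-0.63 ± 0.07 and 0.30 ± 0.06) and Txnip (-0.27 ± 0.07 and 0.32 ± 0.06) had the same pattern of signs, with differences of 0.92 ± 0.09 and 0.58 ± 0.10 (adjusted p = 0.0021 and 0.027). Ddit4 and Siah2 measured 0.03 ± 0.07 and 0.00 ± 0.04 after stimulation, and their differences of 0.82 ± 0.11 and 0.70 ± 0.10 passed as well. The heat shock list had a median of -0.39 at rest and -0.03 after stimulation, and the difference passed for 1 of its 22 genes, Bag3.

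Other features changed with condition as well. The macrophage marker sum was 1682 to 5255 CPM in the resting libraries, with WT above KO, and 71.4 to 116 CPM in stimulated WT beside 148 to 159 CPM in stimulated KO, so that the order of the genotypes was the opposite one. Of 17 macrophage markers tested there, 7 were higher in KO at an adjusted p under 0.05. The part of these transcripts in the differences between conditions, those of C4b, Cd14, Maf and the interferon genes among them, was not tested. The interferon list had a median of -0.14 at rest and 0.73 after stimulation, where 18 were higher at an adjusted p under 0.05, and the difference passed for 7 of 44 genes. The Y-linked Ddx3y measured 170.1, 167 and 169 CPM in resting WT and 176, 159 and 188 in resting KO and had 0 counts in each of the 6 stimulated libraries, while Xist, the transcript of the inactive X chromosome, had 4 to 7 counts in resting and 59283 to 75106 in stimulated libraries, so condition and sex-linked transcripts cannot be told apart in these differences, while within the resting comparison they matched.

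**Figure D5:**
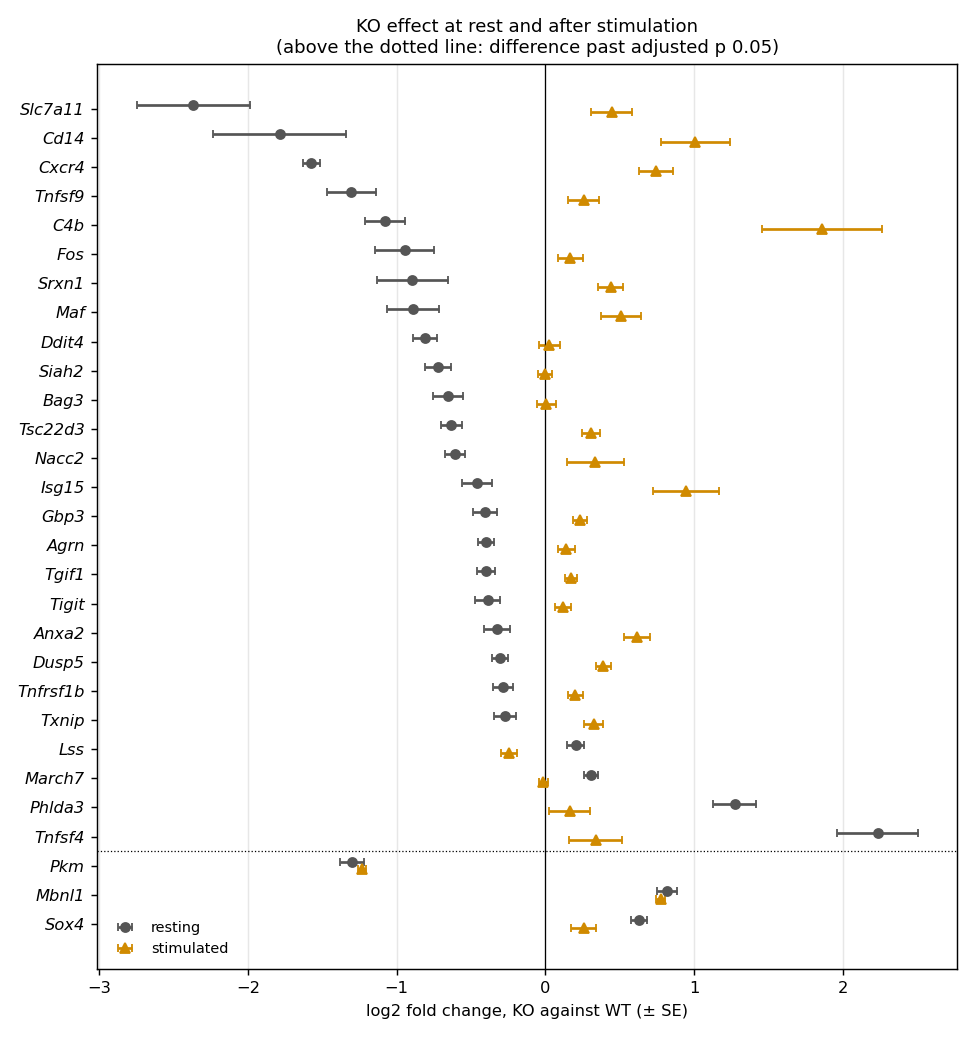
Log2 fold change of KO against WT ± SE at rest (grey circles) and after stimulation (orange triangles); above the dotted line are the named genes whose difference passed an adjusted p of 0.05, below it Pkm, Mbnl1 and Sox4, whose difference did not. Cxcr4 moves from -1.57 to 0.75, while the 2 values of Pkm lie at -1.30 and -1.23.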

How the data were processed

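Polyadenylated RNA of 12 mouse CD4 T cell libraries was sequenced with a stranded kit, per the labels' protocols. The authors deposited expected counts, estimated by RSEM for each gene; bcl2fastq 2.20, cutadapt 1.18, STAR 2.7.0f, RSEM 1.3.1 and the mm10 build are listed, per the submitters' processing notes. Strand handling in the counting was not stated by the labels. Gene names and positions came from GENCODE (all 55450 IDs matched).

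Expected counts were rounded, filtered with filterByExpr (minimum count 10, minimum total 15), TMM-scaled and tested on the 6 resting libraries with edgeR 4.0.16 (robust quasi-likelihood F-test, R 4.3.3), with Benjamini-Hochberg adjustment at 0.05. All adjusted p values are edgeR's unless another tool is named. CPM were computed with TMM. Totals of 63266477 to 72128433 counts make 3 counts equal to 0.0416 to 0.0473 CPM. The script was tested on simulated data. DESeq2 1.42.0, limma 3.58.1 voom, other filters and scalings, covariates, the replicate block and left-out libraries served as alternatives. A covariate was the mean log2 level of a marker list. Sequences were compared with blastn 2.17.0. The groups, lists and members were chosen with earlier results of these data known. Named were Pkm, all genes past the threshold, and up to 12 per direction by smallest p. Those 12 had to have a mean CPM of 3 or more and no overlap of the WT and KO libraries. From each list 3 genes by smallest p and 2 by highest mean were named, besides those said to be chosen after their values were seen. Some genes that this rule names are not reported here.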

Additional observations from a re-analysis of the deposited data

Results flagged for a closer look

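For 26 named genes the KO effect differed between stimulated and resting cells (edgeR test of that difference, adjusted p of 0.05, 3 libraries per group). Over all genes the test passed for 121 of 17460 (0.693%), these 26 among them. Genes were named by their resting values, and the test uses the same resting libraries again. That choice by itself favours a difference between the conditions. Values are the KO effect after stimulation minus that at rest, on the log2 scale. Cxcr4 measured 2.30, Tsc22d3 0.92, Siah2 0.70, Tgif1 0.55, Dusp5 0.68, Slc7a11 2.80, Tnfsf9 1.55 and Phlda3 -1.13, and these 8 passed in all 12 fits that left out 1 library. Ddit4 at 0.82 and Agrn at 0.52 passed in 11 of those fits, C4b at 2.92 in 10, Anxa2 at 0.92 in 9 and Gbp3 at 0.62 in 8. The others passed in at most 6 of 12.

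Among these less steady genes, Nacc2 measured 0.93, Bag3 0.65, Tigit 0.49, Txnip 0.58 and Tnfrsf1b 0.47. The TNF ligand Tnfsf4 measured -1.91 and the ubiquitin ligase March7 -0.34. The sterol enzyme Lss measured -0.47. Fos measured 1.09, Isg15 1.38, Maf 1.38, Srxn1 1.32 and Cd14 2.77. Summed macrophage markers ran the opposite way in the 2 conditions, WT being above KO at rest and below KO after stimulation. The part of macrophage transcripts in any of the 26 values was not tested. Resting libraries held Y-linked and stimulated libraries held Xist transcripts, so condition and sex-linked transcripts cannot be told apart in all 26 values.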

How the results depend on the processing

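The number of genes called at rest, 6 in the reported fit, was 518 with DESeq2, 2438 with limma voom and quality weights, 40 of 26913 without a filter on low counts, 161 in the contrast of a 12-library fit, 71 with macrophage markers and 21 with erythroid markers as a covariate, and 30 without both libraries highest in erythroid markers. With 1 library left out it was 2 to 18. After stimulation 719 became 1133 with DESeq2, 1372 with voom and 128 to 1408 with 1 library left out. For the difference between conditions 121 became 1012, 3159 and 204 with DESeq2, voom and a filter of 1 CPM in 3 libraries, and 27 to 1646 with 1 library left out, the highest without WT resting 3. DESeq2 size factors split those calls 87 higher and 38 lower, beside 97 and 24. The cause of these shifts was not tested. With the macrophage covariate, Hk3 turned to 0.084, Pdpr to -0.030, Csf1r to 0.17, P2ry13 to 0.15 and P2ry14 to 0.15. Csf1r is itself a marker averaged in that covariate, so a smaller value was built in for it. Of the other values of named genes under the alternatives, 1799 kept direction and side of the threshold, 266 newly passed and 157 no longer passed. Same-numbered resting libraries (replicates 1, 2 and 3) correlated at 0.36, -0.14 and 0.32 in their deviations, and differently numbered ones at -0.44 to 0.29. WT resting 1 and WT resting 3 correlated best with the KO library of their own number, and WT resting 2 did not. Whether same-numbered libraries share a batch was not tested. With the replicate block 5 genes were called at rest, 997 after stimulation and 132 for the difference. Counts of 3 per library limit the lowest genes.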
